A study of Mus musculus with 6 samples.

Results

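The 3 control tumours of this study describe what a subcutaneous KPC1242 tumour expresses when the mouse has received only vehicle. KPC1242 is a mouse line of pancreatic ductal adenocarcinoma (PDAC). C57BL/6J mice had 250000 of its cells placed under the skin, received phosphate-buffered saline (PBS) by gavage each day from day 8 to day 12, and gave up their tumours on day 14. The members are all samples labelled PBS, 3 of the 6 in the series. The other 3 tumours came from mice given folinic acid by the same route and are not used here. Every tumour gave 1 stranded total RNA library. The deposited values are TPM, a transcript abundance divided by transcript length and scaled to 1000000 in every library, so they can be compared between genes. Of 55357 gene rows, 54012 carry a symbol, and these were ranked by mean TPM.

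Several features limit the tumours as a model. They grew from a transplanted line at a site that is not the pancreas, and a dissected piece can hold the host's own stromal, immune and neighbouring tissue. Whether every tumour is from a different mouse is not stated in the labels, and the descriptions of all 3 share a prefix whose meaning is not stated. TPM keeps no depth, so read numbers are unknown. With 1 group there is no contrast and no test; errors are SD over 3 tumours. In the sentences below, values stand in the order of PBS replicates 1, 2 and 3, called tumours 1, 2 and 3.

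PDAC arises from the exocrine pancreas through duct-like lesions, many of which switch on genes of the stomach lining before they become invasive. The cancer cells sit in a dense bed of fibroblasts, collagen, vessels and macrophages, usually with few lymphocytes. KPC names a genetic mouse model of this cancer. A bulk sample mixes all these cells, so fewer cells of a type and less RNA per cell cannot be told apart.

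A mean of at least 1 TPM was reached by 14856 genes, and 14065 genes reached 1 TPM in every tumour. At 10 TPM the count was 9399, at 100 TPM it was 1544 and at 1000 TPM it was 138. Values above 0 were listed for 25512, 23788 and 25058 genes, and 25556 genes were listed at 0 in all 3 tumours. The 10 highest genes held 10.5% ± 0.23 (SD, n = 3) of the TPM of genes with a symbol, the 100 highest 32.9% ± 0.738 and the 1000 highest 63.5% ± 0.544. Ribosomal protein genes, recognised by symbol, held 15.5% ± 0.527 and supplied 56 of the 100 highest genes. Mitochondrially encoded genes held 4.04% ± 0.0939, and genes with predicted or pseudogene symbols held 9.15% ± 0.0702. The remaining 70.2% ± 0.68 belonged to 21408 genes outside these classes and the small structural RNAs.

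The 3 tumours were close to each other for most genes. Across the 14856 genes, Pearson's r of log2(TPM + 1) was 0.982 between tumours 1 and 2, 0.986 between tumours 1 and 3, and 0.981 between tumours 2 and 3; genes are not independent replicates. The median SD of a gene over the 3 tumours was 0.11 on the log2(TPM + 1) scale, a coefficient of variation of 8.34%. The median SD was 0.17 for the 5457 genes between 1 and 10 TPM and 0.06 for the 138 genes of at least 1000 TPM. A pseudocount of 1 shrinks differences between low values. The steadiest genes of at least 10 TPM included Esyt2, a tether between the endoplasmic reticulum and the cell surface, listed at 73.0, 73.2 and 73.0 TPM.

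**Figure D1:**
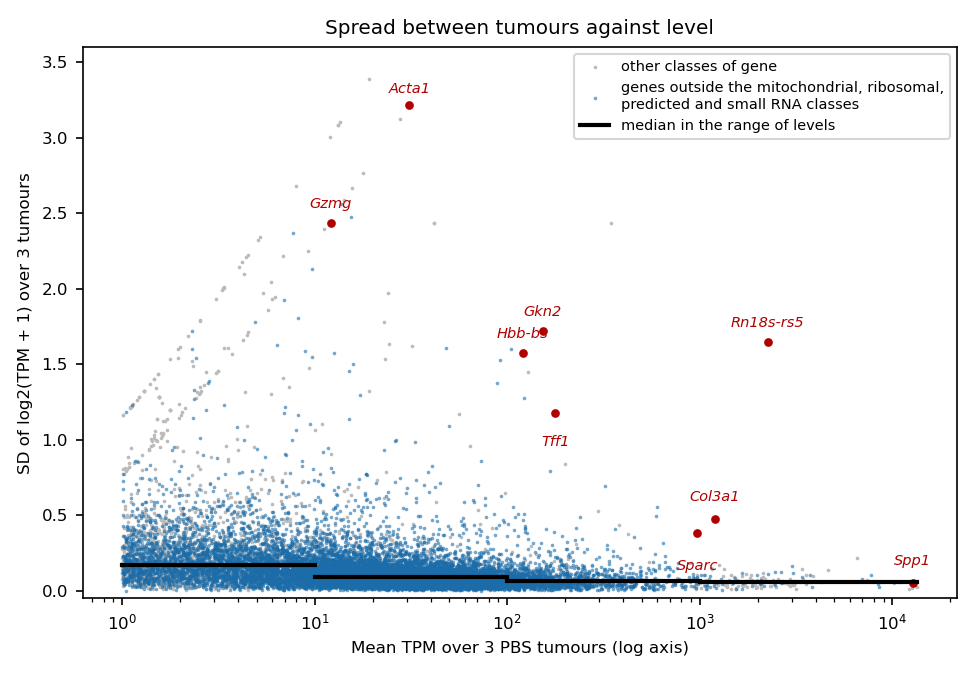
Each point is 1 of the 14856 genes that average 1 TPM or more; the x axis is its mean TPM on a log axis and the y axis the SD of log2(TPM + 1) over the 3 PBS tumours, with black bars for the median in 4 ranges of level. Spp1 lies near the bottom at the far right, while Acta1, Gzmg, Gkn2, Hbb-bs, Tff1 and Rn18s-rs5 lie far above the median of 0.11.

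A tumour was called apart for a gene when it lay above both others, or below both others, by at least 1 on the log2(TPM + 1) scale. This held for 289 of the 14856 genes. Tumour 1 was apart and high for 37 genes (0.249%) and apart and low for 35 (0.236%). In tumour 2 the counts were 59 high (0.397%) and 75 low (0.505%), and in tumour 3 they were 59 high (0.397%) and 49 low (0.33%). Apart from size, tumour 1 had the highest value of the 3 for 44.4% of genes, tumour 2 for 33.3% and tumour 3 for 21.8%. These percentages, from the values as deposited, are the background for the counts of gene groups below. No such share is given for counts under other scalings. The groups were chosen with earlier results of these data known, so such comparisons are descriptions only.

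Library composition also differed in tumour 3. Small structural RNAs, chosen after their values were seen, held 0.831, 0.855 and 1.59% of TPM. Rn18s-rs5, an 18S ribosomal RNA gene, was listed at 666, 820 and 5288 TPM. The 5_8S_rRNA gene was listed at 43.9, 55.8 and 933 TPM, and Rn7s1, the RNA of the signal recognition particle, at 4.66, 5.80 and 114 TPM. All of these were high in tumour 3 and near each other in tumours 1 and 2. Mir6236, a short locus that ranked 12 among all symbols, was listed at 5883, 6115 and 7781 TPM. The part of these RNAs in the results for tumour 3 was not tested.

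Predicted genes filled ranks 1, 3, 5 and 10. Each of these 4 matched a mitochondrial gene when its GENCODE M21 transcript was aligned to the other transcripts, and GENCODE classes them as unprocessed pseudogenes. Gm28661 was identical to mt-Co2 over 681 bases, Gm10925 to mt-Atp6 over 678 bases and Gm28437 to mt-Co3 over 783 bases. Gm29216 matched mt-Co1 at 99.8% over 483 bases, with 1 mismatch. They lie side by side on chromosome 1 (GRCm38), Gm28437 at chr1:24613189-24613971 and Gm28661 at chr1:24614885-24615565, both on the minus strand. The authors' own build is not given in the sources used here. The opening 60 bases of Gm28437 and of mt-Co3 (chrM:8607-9390, GRCm38) are shown because the same letters carry 2 entries of the table; both lines are identical throughout.
Gm28437: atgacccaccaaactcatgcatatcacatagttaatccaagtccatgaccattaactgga
mt-Co3: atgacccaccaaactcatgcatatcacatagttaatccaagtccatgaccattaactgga

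Reads from identical stretches cannot be assigned by sequence. For mt-Co2, mt-Co3 and mt-Atp6 the table gave most of the abundance to the chromosome 1 entries, and for mt-Co1 and mt-Nd4l it did not. The match of Gm29216 covered 483 of the 1545 bases of mt-Co1, with 1 mismatch, so only part of that gene is concerned. Gm29216 is also shorter, at 492 bases, so the summed TPM of that pair is not the level of 1 transcript. For mt-Co2, a subunit of cytochrome c oxidase, 99.7% of the summed TPM stood on Gm28661. The share on the copy was 98.9% for mt-Co3, 95.9% for the ATP synthase subunit mt-Atp6, 37.8% for mt-Co1 and 13.7% for mt-Nd4l, whose copy is Gm10222. Alone, mt-Co3 was listed at 41.3, 60.8 and 282 TPM, which made tumour 3 apart and high. With its copy the values were 10647, 11564 and 11228 TPM, and tumour 2 was highest. Summed over the 13 mitochondrial coding genes, the listed values were 40896, 39116 and 38946 TPM, and with the 5 copies they were 84595, 84585 and 84226 TPM, a mean of 84468 ± 210.3 (SD, n = 3). The levels of single genes in these pairs are therefore uncertain, while the sum was nearly the same in all 3 tumours.

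**Figure D2:**
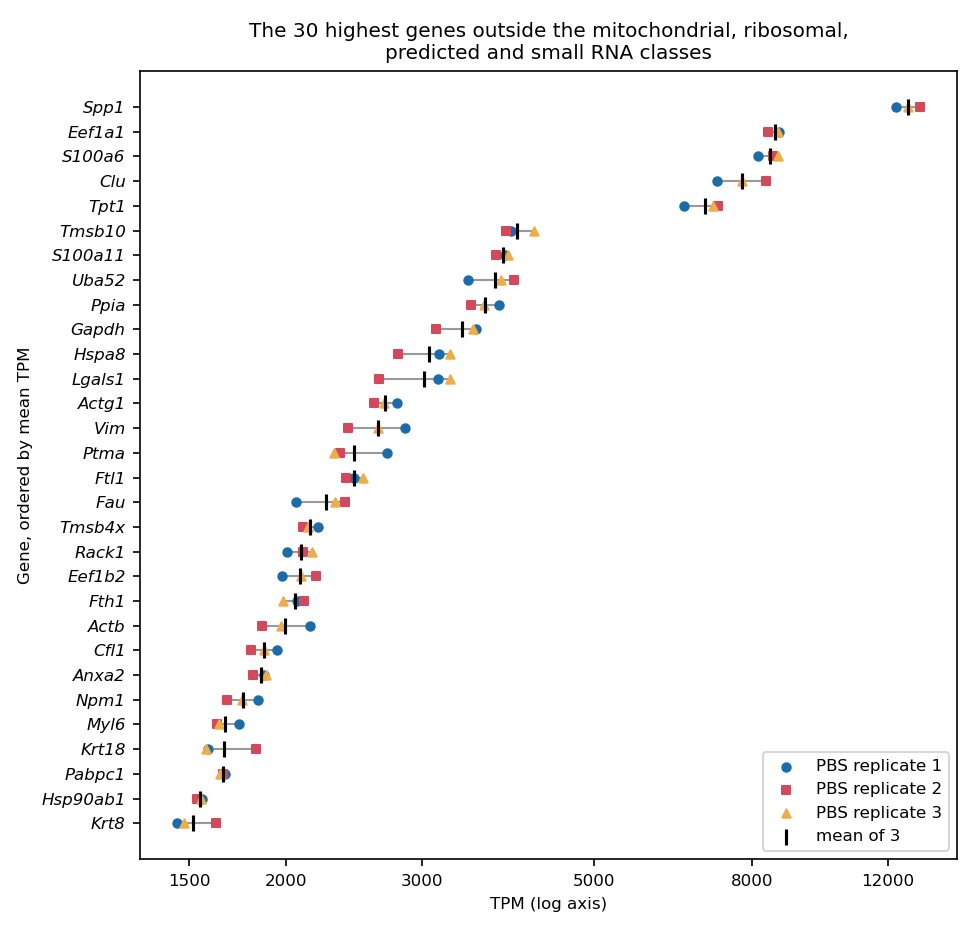
TPM on a log axis for the 30 highest genes outside the mitochondrial, ribosomal protein, predicted and small RNA classes; symbols are the 3 PBS tumours, the grey line is their range and the black tick their mean. Spp1 stands alone at the top, and 25 of the 29 pairs of neighbouring genes have ranges that overlap.

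Spp1 was the highest gene outside those classes and ranked 2 of 54012. It encodes osteopontin, a secreted phosphoprotein that binds integrins and CD44 and is made by many carcinoma cells and macrophages. Its values were 12282, 13190 and 12739.8 TPM, a mean of 12738 ± 454 (SD, n = 3), and even its lowest value lay above all values of the next gene outside those classes. Eef1a1, the elongation factor that brings aminoacyl-tRNA to the ribosome, followed at 8671, 8405 and 8639.6 TPM. S100a6, a calcium-binding protein common in epithelial tumours, was listed at 8138, 8524 and 8646 TPM. Clu, encoding the secreted chaperone clusterin, was listed at 7208, 8349 and 7780.1 TPM. Eef1a1 was above S100a6 in tumour 1 and below it in tumours 2 and 3, so their order is not settled by these tumours. Clu was below both in every tumour, though its range overlapped that of S100a6.

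Outside those classes, 31 genes were among the 100 highest. The 22 genes for cytoskeleton, translation and chaperones, which serve every cell, had a lowest mean of 355 TPM and a median of 1934 TPM against 0.0133 TPM over all 54012 genes. Tpt1, a growth-associated protein, was listed at 6541, 7236 and 7120.4 TPM. Tmsb10, a small actin-binding peptide, was listed at 3905, 3846 and 4182 TPM. Krt18 and Krt8, the keratin pair of simple epithelia, and Vim, the intermediate filament of mesenchymal cells, were all within the 100 highest. For the cytoskeletal list the tumour that was most often highest depended on scaling. It was tumour 1 as deposited, in 14 of 22 members against 44.4% of all genes. After median-ratio scaling it was tumour 3, in 15 of 22.

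The 250 bases before the start of Spp1 are shown because it is the highest gene outside the mitochondrial, ribosomal protein, predicted and small RNA classes. They come from RefSeq (GRCm38.p6, chr5:104434861-104435110, plus strand, the start farthest upstream of 2 in the table), read 5′ to 3′, with capitals for TATAAA, the core of a TATA box.
Spp1: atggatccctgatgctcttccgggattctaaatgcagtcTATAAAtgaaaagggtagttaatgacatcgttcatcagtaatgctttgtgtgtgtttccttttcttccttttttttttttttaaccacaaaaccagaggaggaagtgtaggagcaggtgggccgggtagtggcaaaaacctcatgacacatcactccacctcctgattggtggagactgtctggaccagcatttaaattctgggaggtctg

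That match begins 211 bases before the start. TATAAA, searched on both strands, was in 12.4% of all 32851 promoters of this length, in 6.87% of those of genes of at least 1 TPM, and in 14.5% of 110 promoters of the 100 highest genes outside the excluded classes. Those 110 promoters covered 79 of the 100 genes. A match is a description of letters and not a measured site.

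The labelled cell type was compared with its epithelial markers. Of 20 simple-epithelium genes, 18 had a mean of at least 1 TPM and 11 at least 100 TPM, with a list median of 119 TPM. Krt18 was listed at 1586, 1829 and 1577 TPM, and Krt8 at 1448, 1623 and 1476 TPM. Krt19, the keratin of ducts, was listed at 1071, 1186 and 1089.6 TPM. Cd24a, a sialoglycoprotein of epithelial and progenitor cells, was listed at 478, 480 and 439.7 TPM. Epcam, the epithelial adhesion molecule, was lower and more uneven at 33.5, 67.2 and 26.1 TPM. The tight-junction gene Cldn3, chosen after its values were seen, was under 1 TPM.

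Tumour 2 was the highest for 16 of the 18 epithelial members, against 33.3% of all genes. The summed list was 6113, 7195 and 6226 TPM, so tumour 2 stood above both others while tumours 1 and 3 were close. None of the 18 differed enough to set a tumour apart as deposited, and 1 did in tumour 2 under median-ratio scaling and under quantile normalization. Muc1, a membrane mucin chosen after its values were seen, was listed at 307, 488 and 292 TPM. Values of the collagen list ran the other way, at 5000, 2923 and 3902 TPM. Whether the proportion of tumour to stroma plays a part was not tested.

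Genes of the stomach lining were all expressed, and they differed more between tumours than any other epithelial list here. All 15 gastric-type members had a mean of at least 1 TPM, with a median of 88.6 TPM, or 39.6 TPM without tumour 2. Their sums were 835, 2018 and 708 TPM, a factor of 2.85 between the highest and the lowest. Tumour 2 was highest in 14 of the 15, apart and high in 9, and tumour 3 was apart and low in 2; all 3 counts were the same under each scaling tried. As deposited, tumour 2 was highest for 33.3% of all genes and apart and high for 0.397%, and tumour 3 was apart and low for 0.33%. This list was chosen with earlier results of these data known, so the comparison is a description only.

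Tff1, a trefoil peptide that gastric surface cells secrete with mucus, was listed at 92.5, 359 and 81.3 TPM. Tff2, the trefoil peptide of mucous neck cells, was listed at 63.5, 255 and 48.2 TPM. Tumour 2 was far above tumours 1 and 3 for both. The gastrokines, secreted proteins of the gastric surface, followed the same order. Gkn2 was listed at 90.4, 338 and 30.4 TPM, Gkn1 at 62.2, 227 and 23.9 TPM, and Gkn3 at 51.1, 187 and 28.0 TPM. For Gkn1 and Gkn2 tumour 3 was also below both others by the same rule. Agr2, a disulfide isomerase of mucus-making cells, and Muc5ac, the surface mucin of the stomach, were chosen after their values were seen. Agr2 was listed at 31.8, 96.5 and 21.8 TPM and Muc5ac at 3.49, 14.7 and 2.42 TPM.

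Ctse, the aspartic protease cathepsin E, was the highest of the list at 174, 238 and 212 TPM. Tumour 2 was highest here too, by less, and the SD of 0.23 on the log2 scale lay above the median of 0.07 for genes of 100 to 1000 TPM. The 3 members with the smallest SD, chosen after their values were seen, were Anxa10, an annexin, at 123, 128 and 109 TPM, Vsig1, a junction protein, at 97.1, 106 and 107 TPM, and Cldn18, a claudin of the stomach, at 28.8, 31.2 and 29.5 TPM. Of the 15, Vsig1 was the member not highest in tumour 2.

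The promoters of the 3 gastrokine genes are shown because these neighbours on chromosome 6 were high together in tumour 2. Each line gives the 250 bases before the start (RefSeq, GRCm38.p6), 5′ to 3′ on the gene's strand, with capitals for TATAAA and for AGATAA, a motif that GATA factors bind. Gkn1 is at chr6:87350916-87351165 (minus strand), Gkn2 at chr6:87373115-87373364 (plus strand) and Gkn3 at chr6:87388936-87389185 (minus strand).
Gkn1: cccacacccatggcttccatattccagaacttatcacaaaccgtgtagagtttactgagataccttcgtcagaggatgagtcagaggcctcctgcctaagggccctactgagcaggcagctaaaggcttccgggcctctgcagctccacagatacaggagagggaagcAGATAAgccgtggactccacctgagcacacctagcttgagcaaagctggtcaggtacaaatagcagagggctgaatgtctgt
Gkn2: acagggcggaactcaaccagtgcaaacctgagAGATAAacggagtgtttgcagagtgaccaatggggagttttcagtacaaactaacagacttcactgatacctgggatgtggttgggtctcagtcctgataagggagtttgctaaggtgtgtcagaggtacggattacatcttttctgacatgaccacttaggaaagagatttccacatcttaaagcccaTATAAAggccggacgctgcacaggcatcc
Gkn3: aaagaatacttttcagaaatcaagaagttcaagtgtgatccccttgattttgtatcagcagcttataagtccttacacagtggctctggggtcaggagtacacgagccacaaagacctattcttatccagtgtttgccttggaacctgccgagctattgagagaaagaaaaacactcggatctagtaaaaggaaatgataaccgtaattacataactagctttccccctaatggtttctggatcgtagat

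In Gkn2, TATAAA begins 29 bases before the start and AGATAA 218 bases before it. In Gkn1, AGATAA begins 82 bases before the start, and Gkn3 holds neither set of letters in this window. AGATAA, searched on both strands, was in 9.99% of all promoters and 5.97% of those of genes of at least 1 TPM. TGTTTAC, the forkhead motif, was in 3.17% of all promoters and in none of these 3.

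Transcription factors that mark pancreatic ducts and gut endoderm were expressed in all 3 tumours. Of 12 in the list, 10 had a mean of at least 10 TPM. Hnf4a, a nuclear receptor of endodermal epithelium, was the highest at 114, 126 and 124 TPM. Pdx1, which defines the pancreatic bud, was listed at 31.8, 34.3 and 34.9 TPM, and Sox9, the duct factor, at 43.1, 51.0 and 42.2 TPM. Ptf1a, the acinar master regulator chosen after its values were seen, was listed at 0 in all 3. Tumour 2 was highest for 7 of 10, against 33.3% of all genes, and no tumour was apart for any of them.

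Acinar and endocrine products were close to absent. Of 16 genes, 8 were listed at 0 in every tumour, among them both insulin genes and glucagon, and 15 had a mean under 1 TPM. Cpa1, the digestive enzyme carboxypeptidase A, was listed at 0.81, 0.77 and 0.51 TPM. The exception was Cela1, an elastase also made outside the pancreas, at 54.8, 78.0 and 42.3 TPM. Squamous genes were low as well, with 4 of 13 passing 1 TPM. Krt5, the basal keratin of skin, was listed at 0 in all 3 tumours, Trp63 at 0.15, 0.14 and 0.14 TPM, and Krt14 at 1.69, 1.80 and 2.60 TPM. Sfn was the highest of that list at 8.31, 18.7 and 11.1 TPM.

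Mesenchymal genes were present beside the keratins. All 10 members passed 1 TPM. Vim was listed at 2849, 2408 and 2633 TPM, Fn1, encoding fibronectin, at 1347, 1265 and 1280.1 TPM, and S100a4 at 423, 310.04 and 384 TPM. Cdh2, the mesenchymal cadherin, was listed at 44.2, 36.3 and 40.1 TPM. Tumour 1 was highest in 8 of 10, against 44.4% of all genes, and no tumour was apart. The epithelial cadherin Cdh1, chosen after its values were seen, was higher than Cdh2 in TPM at 291, 356 and 316 TPM.

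Genes that drive or mark pancreatic cancer had nearly equal sums in the 3 tumours. All 16 passed 1 TPM, with a median of 70.3 TPM and sums within 1.02 times of each other. Trp53, the tumour suppressor, was listed at 133, 134 and 136 TPM, and Cdk4, the kinase that starts the cell cycle, at 794, 797 and 819 TPM. Cdkn2a, the locus of p16 and p19Arf, was listed at 296, 343 and 332 TPM. Transcript levels do not show which allele is expressed. Erbb3, chosen after its values were seen, was less even at 18.2, 31.2 and 12.96 TPM.

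Proliferation genes were expressed at moderate levels in all tumours and were a little higher in tumour 1. All 19 passed 10 TPM, with a median of 78.3 TPM. Their sums were 1704, 1428 and 1483 TPM. Mki67, the antigen of cycling cells, was listed at 41.3, 32.0 and 34.1 TPM, Top2a, which untangles DNA in dividing cells, at 156, 137 and 138 TPM, and Pcna, the sliding clamp of replication, at 188, 158 and 152 TPM. Tumour 1 was highest in 18 of 19 as deposited, against 44.4% of all genes, and in 17 under median-ratio scaling. The excess was small, a median of 0.24 on the log2 scale over the mean of the others, and no gene set a tumour apart.

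Glycolytic genes were high, with a median of 166 TPM over 18 members and a lowest mean of 18.9 TPM. Gapdh was listed at 3516, 3126 and 3486 TPM, Pkm, the pyruvate kinase of growing tissue, at 1322, 1213 and 1344 TPM, and Ldha, which makes lactate, at 1069, 1046 and 1092 TPM. Tumour 2 was the lowest for Gapdh and Pkm, and the 3 values of Ldha lay close together. In the list of antioxidant and amino acid stress genes all 13 passed 1 TPM. Atf4, the stress factor that raises amino acid synthesis genes, was listed at 271, 281 and 298 TPM. Nqo1, a target of the antioxidant regulator Nrf2, was listed at 7.98, 9.53 and 5.15 TPM.

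**Figure D3:**
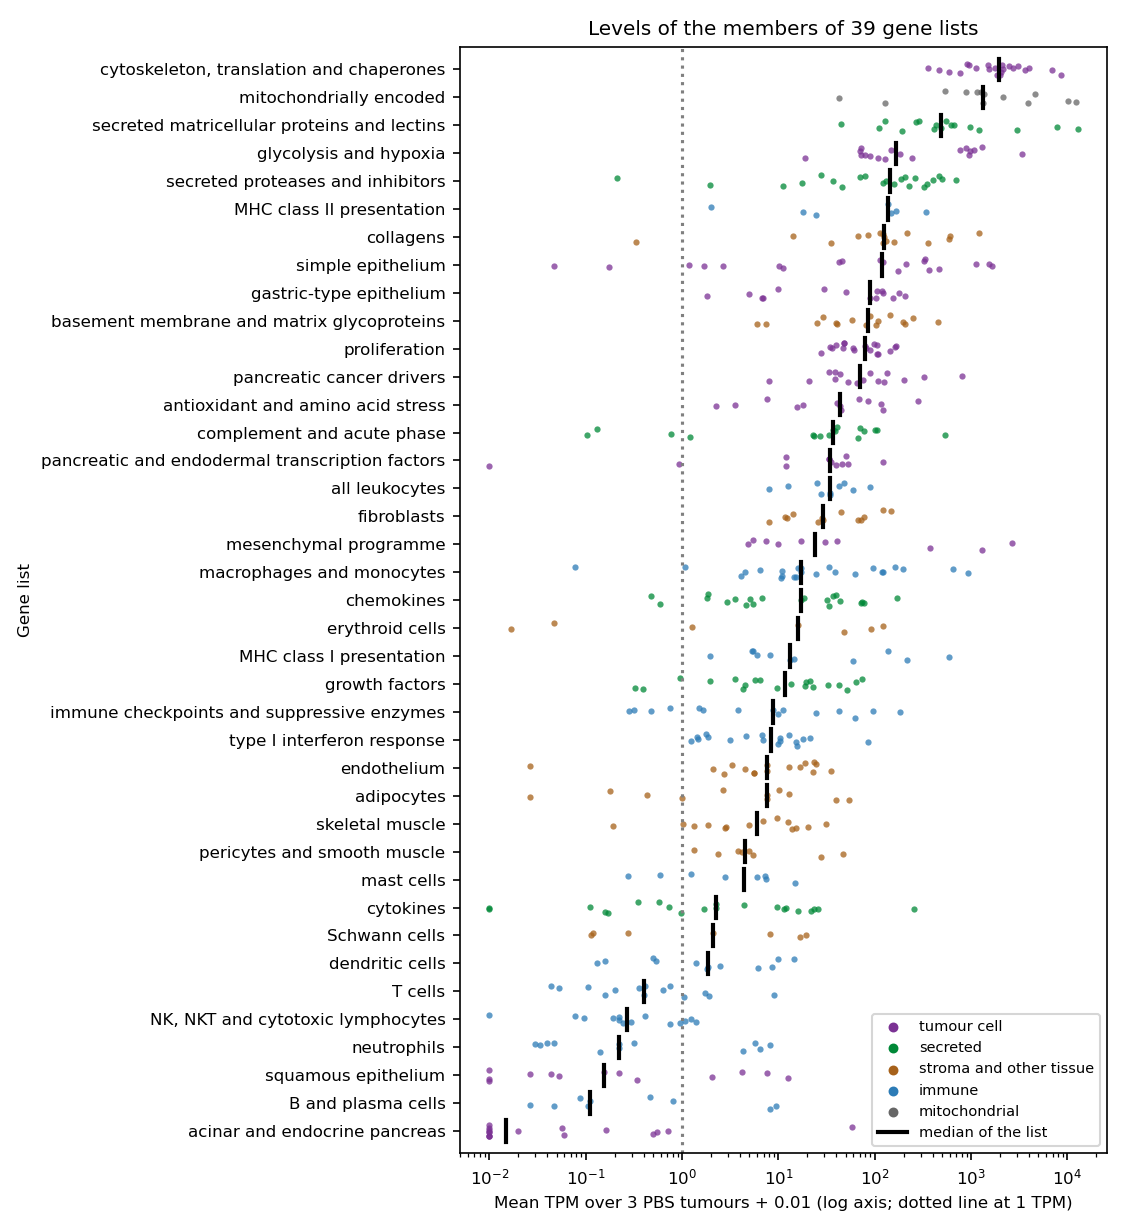
Each point is the mean TPM over the 3 PBS tumours, plus 0.01, of 1 member of 39 gene lists on a log axis; black bars are list medians, colours the role of the list, and the dotted line marks 1 TPM. Cytoskeletal and secreted matricellular genes lie highest, and lymphocyte, squamous and acinar genes lie mostly left of 1 TPM.

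Genes of secreted products spanned a wide range of levels. The 118 genes of the 6 secreted lists had a median of 29.9 TPM, and 100 of them passed 1 TPM. The 4 that reached 1000 TPM, Spp1, Clu, Lgals1 and Igfbp4, were all in the list headed matricellular proteins and lectins. That heading is loose, since Clu is a chaperone and Igfbp4 a binding protein. All 17 members of that list passed 10 TPM, with a median of 490 TPM. Besides Spp1 and Clu they included Lgals1, encoding galectin-1, at 3144, 2641 and 3256 TPM. Igfbp4, which binds insulin-like growth factors, was nearly constant at 1232, 1205 and 1203 TPM. Sparc, a collagen-binding protein of active stroma, was less even at 1241, 732 and 944 TPM, with tumour 2 lowest and tumour 1 highest, the order of the fibrillar collagens.

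Among 22 proteases and inhibitors, 21 passed 1 TPM. Wfdc2, a small epithelial protease inhibitor, was the highest at 633, 779 and 669.95 TPM. The lysosomal cathepsin gene Ctsl was listed at 521, 478 and 515 TPM and Ctsd at 441, 461 and 477 TPM. Mmp14, the membrane-bound metalloprotease that cuts fibrillar collagen, was listed at 369, 312 and 365 TPM. Timp1, an inhibitor of metalloproteases, was listed at 265, 158 and 258 TPM and was lowest in tumour 2. Mmp7, a matrilysin of epithelia chosen after its values were seen, was the member under 1 TPM.

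Growth factor genes were far lower than matrix products. Of 20 members 17 passed 1 TPM and none reached 100 TPM in mean. Hbegf, a ligand of the EGF receptor, was listed at 77.4, 65.7 and 80.3 TPM, and Areg, another such ligand, at 18.4, 15.9 and 22.7 TPM. Tgfb1, the cytokine that activates fibroblasts and restrains T cells, was steady at 63.0, 64.6 and 61.8 TPM. Pdgfb, which recruits pericytes, was listed at 42.9, 44.2 and 41.8 TPM.

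Complement and acute phase genes were expressed by 14 of 17 members above 1 TPM. Cp, encoding the copper oxidase ceruloplasmin, led at 541, 597 and 482 TPM. C3, the central complement protein, was listed at 98.0, 152 and 69.8 TPM, Lcn2, an iron-scavenging lipocalin, at 73.8, 136 and 92.8 TPM, and Lbp, which presents lipopolysaccharide to Cd14, at 66.2, 109.5 and 56.7 TPM. Tumour 2 was highest for these 4 and for 9 of the 14, against 33.3% of all genes. Tumour 3 was lowest in sum, at 1000.2 TPM against 1170.2 and 1394. C4b, chosen after its values were seen, set tumour 3 apart at 42.9, 54.8 and 18.7 TPM.

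The chemokines were led by Ccl6, which recruits myeloid cells, at 174, 188 and 146 TPM. Of 21 members 19 passed 1 TPM. Cxcl17, a mucosal chemokine, was listed at 71.0, 109 and 49.5 TPM, and Ccl8, which recruits monocytes, at 85.2, 101 and 32.9 TPM, where tumour 3 was apart and low. Cxcl12, the stromal ligand of Cxcr4, was listed at 55.8, 22.2 and 22.8 TPM. Ccl7, which also recruits monocytes, was listed at 28.2, 9.79 and 13.2 TPM. Tumour 1 was apart and high for both of these as deposited, against 0.249% of all genes. Under median-ratio scaling or quantile normalization it was so for 1 of them. The neutrophil chemokine Cxcl1 was under 1 TPM at 0.51, 0.35 and 0.86 TPM.

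Of 21 cytokines 12 passed 1 TPM. Il33, an alarmin stored in nuclei of epithelial and stromal cells, stood far above the others at 275, 256 and 228 TPM. Il34 and Csf1, both ligands of the macrophage receptor Csf1r, were listed at 24.1, 27.4 and 26.3 TPM and at 26.0, 17.2 and 22.9 TPM. Il1a was listed at 4.84, 3.99 and 4.29 TPM. The T cell cytokine Ifng was listed at 0 in all 3 tumours; it was chosen after its values were seen.

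Collagen genes had the highest median of the stromal lists. Carcinoma cells can also make collagens, and transcripts of host and tumour cells cannot be told apart here. Of 16 collagens, 15 passed 10 TPM, with a list median of 123 TPM. Col3a1 was the highest at 1659.9, 878 and 1048 TPM. Col1a1 was listed at 808, 378 and 616 TPM and Col1a2, the partner chain of type I collagen, at 795, 402 and 586 TPM. Tumour 1 was highest and tumour 2 lowest for all 3 fibrillar genes. Col4a1, a chain of basement membranes, was more even at 385, 329 and 362 TPM.

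Across the list, tumour 2 lay below the mean of the others by a median of -0.67 on the log2 scale, against -0.02 over all genes. The summed levels were 5000, 2923 and 3902 TPM, and no collagen set a tumour apart by the threshold of 1. Col17a1, a protein of skin hemidesmosomes chosen after its values were seen, was under 1 TPM.

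Fibroblast markers had the same order in sum as the collagens, though not in every member. All 13 passed 1 TPM, with a median of 28.9 TPM, and the sums were 792, 526 and 655 TPM. Thy1, a surface glycoprotein, was listed at 148, 117 and 173 TPM. Dcn, a collagen-binding proteoglycan, was listed at 167, 109 and 88.1 TPM, and Cthrc1, a product of activated fibroblasts, at 95.9, 55.1 and 67.0 TPM. Pdgfra, the receptor used to define fibroblasts, was listed at 10.3, 5.98 and 7.39 TPM. Of the 13, 10 were highest in tumour 1, against 44.4% of all genes. Thy1 was highest in tumour 3, and Dcn was lowest there. Dpt, a dermal matrix protein, was listed at 35.9, 32.6 and 9.69 TPM. It was 1 of 2 members that set tumour 3 apart and low, against 0.33% of all genes. The other was Pi16, a marker of universal fibroblasts chosen after its values were seen, at 12.9, 17.9 and 4.38 TPM.

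Basement membrane and matrix glycoproteins were more even. All 16 passed 1 TPM and the sums differed by up to 1.11 times. Bgn, a small proteoglycan, was listed at 537, 335 and 486 TPM, with tumour 2 lowest as for collagens. Lama5, a laminin chain of epithelia, was listed at 202, 286 and 263 TPM and was highest in tumour 2.

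Vessel markers were low but present. Of 16 endothelial genes 15 passed 1 TPM, with a median of 7.64 TPM. Plvap, a protein of fenestrated vessels, was listed at 45.1, 31.3 and 29.5 TPM, Pecam1 at 32.1, 18.5 and 22.4 TPM, and the vessel cadherin Cdh5 at 23.7, 13.3 and 19.3 TPM. Tumour 1 was highest in 10 of 15 as deposited, against 44.4% of all genes. It was so for the same number under each other scaling, for which no share over all genes is given. All 8 pericyte and smooth muscle genes passed 1 TPM, and tumour 1 was highest in 7, against 44.4% of all genes. Rgs5, a pericyte marker, was listed at 43.0, 25.3 and 14.6 TPM, while Myh11, the myosin of mature smooth muscle, was listed at 2.16, 1.30 and 0.51 TPM.

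**Figure D4:**
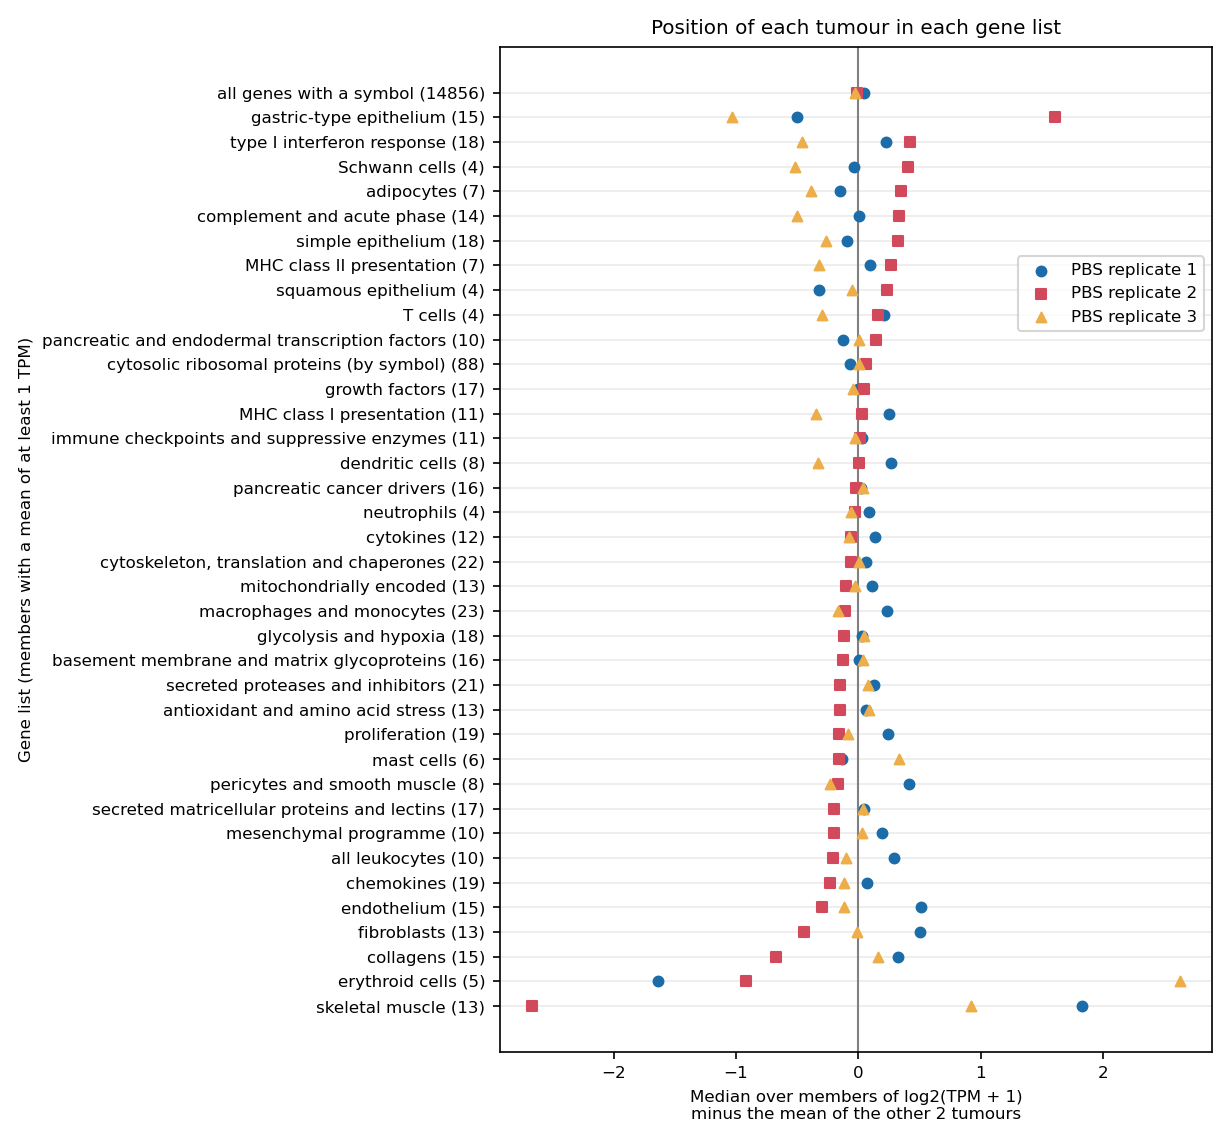
For each list, the median over members with a mean of at least 1 TPM (their number in brackets) of log2(TPM + 1) in 1 PBS tumour minus the mean of the other 2; 5 or fewer members make a median coarse. Gastric-type genes lie at 1.60 in tumour 2, skeletal muscle at -2.67 in tumour 2 and erythroid genes at 2.62 in tumour 3, while all genes lie near 0.

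Skeletal muscle genes differed most between tumours in their sum, by 13.8 times, followed by B and plasma cell genes (7.85) and erythroid genes (7.76). The muscle genes summed to 208, 15.1 and 149 TPM. In this list 13 of 14 passed 1 TPM, mostly through the tumours where they were high. Tumour 2 was apart and low for 12 of the 13, against 0.505% of all genes. Acta1, skeletal actin, was listed at 49.5, 0 and 43.4 TPM. Ckm, muscle creatine kinase, was listed at 23.4, 0 and 17.7 TPM, and Tnnt3, fast troponin T, at 28.0, 0.23 and 17.8 TPM. The tumour with almost no muscle transcript was the one with the highest gastric-type genes; a link between them was not tested. Tnni2 was the exception at 27.6, 12.3 and 20.3 TPM.

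Erythroid genes were high in tumour 3. Of 7 members, 5 passed 1 TPM and all 5 set tumour 3 apart and high, against 0.397% of all genes. The passing member that is not a globin was under 1 TPM in tumours 1 and 2, so it passed only through tumour 3. The sums were 81.8, 115 and 635 TPM. Hbb-bs, an adult beta globin, was listed at 36.5, 47.8 and 277 TPM, and Hba-a2, an alpha globin, at 28.7, 38.2 and 209 TPM. Hba-a1 and Hba-a2 are near-identical, as are Hbb-bs and Hbb-bt, so the division within each pair is uncertain. The red cell membrane gene Slc4a1, chosen after its values were seen, was under 0.1 TPM in each tumour. The small structural RNAs were also high in tumour 3.

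Fat and nerve sheath genes were low. Of 11 adipocyte genes 7 passed 1 TPM. Cfd, the adipose serine protease adipsin, was listed at 0.20, 22.2 and 0.56 TPM and Adipoq, encoding adiponectin, at 0.26, 2.55 and 0.17 TPM; both were high in tumour 2. Fabp4, a fatty acid carrier of fat cells, macrophages and vessels, was instead highest in tumour 1 at 61.0, 32.0 and 24.6 TPM, and Lpl, lipoprotein lipase, was close in all 3 at 11.8, 13.2 and 13.3 TPM. Tumour 2 was highest for 4 of the 7, against 33.3% of all genes, and apart and high for 1, against 0.397%. That member was Cfd, which was under 1 TPM in tumours 1 and 3, so it passed only through tumour 2. Pparg, a nuclear receptor of fat cells that epithelial cells and macrophages also express, was listed at 54.0, 62.6 and 44.3 TPM. Of 7 Schwann cell genes 4 passed 1 TPM, and the defining factor Sox10 was listed at 0.07, 0.15 and 0.09 TPM.

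**Figure D5:**
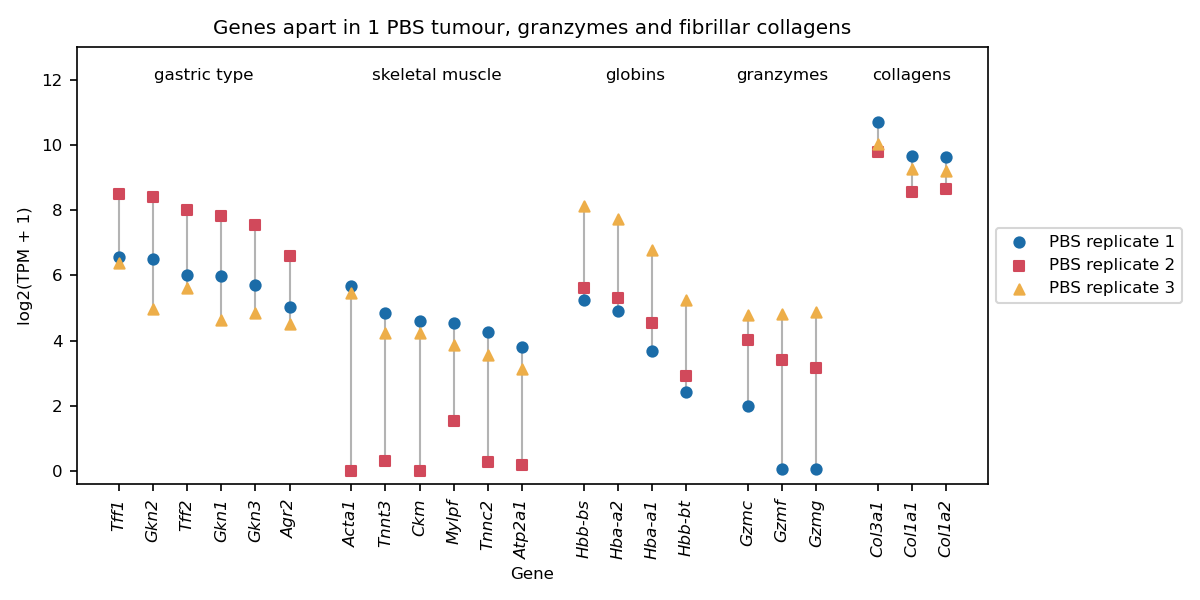
Values of log2(TPM + 1) in the 3 PBS tumours for gastric-type, skeletal muscle, globin, granzyme and fibrillar collagen genes, with grey lines for the range. Tumour 2 is high for the gastric-type genes and low for muscle, tumour 3 is high for globins, and the collagens differ by less.

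Pooled over genes, the immune lists had a lower median than the stromal lists, though single lists did not all follow. The class II presentation list, at 139 TPM, lay above the collagens at 123 TPM, the highest stromal list. The 154 genes of the 12 immune lists had a median of 5.55 TPM, against 16.3 TPM for 108 genes of stroma and other tissue. The 10 genes shared by leukocytes all passed 1 TPM. Ptprc, encoding CD45, was listed at 9.50, 6.75 and 7.80 TPM, and Tyrobp, an adaptor of myeloid and natural killer receptors, at 101, 81.1 and 88.2 TPM. All 10 were highest in tumour 1 as deposited, against 44.4% of all genes. The same held for all 10 under each other scaling, for which no share over all genes is given. Their sums were 442, 346 and 359 TPM, and no member set a tumour apart.

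Macrophage and monocyte genes had the largest sum of the 12 immune lists, at 2702, 2557 and 2417 TPM, most of it from Apoe and Lyz2. Their median of 17.3 TPM was below that of the class II presentation list, 139 TPM. Of 24 members 23 passed 1 TPM and 19 passed 10 TPM. Apoe, a lipid carrier that carcinoma cells can also make, was listed at 879.95, 1004 and 875 TPM, and Lyz2, the myeloid lysozyme, at 761, 598 and 609 TPM. C1qa, a chain of complement C1q made by tissue macrophages, was listed at 219, 197 and 172 TPM. The defining receptor genes were lower, Csf1r at 38.9, 32.4 and 30.1 TPM and Adgre1, encoding F4/80, at 12.9, 10.3 and 9.77 TPM. Of the 23, 16 were highest in tumour 1 as deposited, against 44.4% of all genes, and 14 under median-ratio scaling. Arg1, the arginase of suppressive macrophages chosen after its values were seen, was listed at 98.8, 65.6 and 123 TPM.

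Other myeloid cells left smaller traces. Neutrophil genes passed 1 TPM in 4 of 12. S100a8 was listed at 5.65, 5.31 and 6.16 TPM and Csf3r, the receptor for granulocyte growth factor, at 4.55, 4.26 and 3.90 TPM, while Ly6g, the defining surface marker chosen after its values were seen, was listed at 0.09, 0 and 0 TPM. Of 12 dendritic cell genes 8 passed 1 TPM, led by the chemokine gene Ccl17 at 17.5, 14.8 and 10.9 TPM. Itgax, encoding CD11c, was listed at 9.65, 8.26 and 7.76 TPM and Flt3, the receptor of dendritic precursors, at 0.76, 0.35 and 0.45 TPM. Of 8 mast cell genes 6 passed 1 TPM, and 5 of the 6 were highest in tumour 3, against 21.8% of all genes. Tpsb2, a mast cell tryptase, was listed at 11.4, 13.4 and 19.4 TPM, and Cpa3, the mast cell carboxypeptidase, at 5.70, 5.39 and 6.97 TPM.

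Lymphocyte genes were near the bottom of the range in all 3 tumours. Of 14 T cell genes 4 passed 1 TPM. Cd3e, a chain of the T cell receptor complex, was listed at 0.16, 0.16 and 0.12 TPM and Cd4 at 0.72, 0.92 and 0.21 TPM. The constant region Trbc2 was higher at 9.79, 9.93 and 7.34 TPM, while its partner Trac was listed at 2.21, 1.48 and 1.97 TPM. Cd8a, chosen after its values were seen, was listed at 0.04, 0.06 and 0 TPM. No T cell gene set a tumour apart.

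Of 14 genes of natural killer, NKT and cytotoxic cells, 3 passed 1 TPM. Ncr1, a receptor of natural killer cells, was listed at 0.28, 0.04 and 0.23 TPM and Klrb1c, encoding NK1.1, at 0.32, 0.29 and 0.25 TPM. Gzmb, a granzyme of killer cells, was listed at 0.23, 1.07 and 2.90 TPM, and Prf1, the pore-forming perforin, at 0.13, 0.76 and 1.94 TPM. Both were lowest in tumour 1 and highest in tumour 3, and Prf1 averaged under 1 TPM. The list did not share that order. Of its 3 members that passed, tumour 1 was highest in 2, against 44.4% of all genes. Tumour 3 was highest in 1, against 21.8%. Gzmf and Gzmg, granzymes outside the list, were among the 10 genes of largest SD. Gzmf was listed at 0.05, 9.50 and 26.9 TPM and Gzmg at 0.05, 7.92 and 28.3 TPM, so tumour 1 was apart and low and tumour 3 apart and high for both. Their neighbour Gzmc, chosen after its values were seen, was listed at 2.95, 15.3 and 26.7 TPM. These granzyme genes are close copies of each other, so the division of abundance among them is uncertain.

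Only the immunoglobulin genes Ighm and Igkc passed 1 TPM among 9 B and plasma cell genes. Ighm was listed at 7.36, 17.9 and 3.09 TPM and Igkc at 4.07, 19.7 and 0.70 TPM. These 2 were apart and high in tumour 2, against 0.397% of all genes. Both were also apart and low in tumour 3 as deposited, against 0.33% of all genes, and 1 of them under median-ratio scaling or quantile normalization. Cd79a, part of the B cell receptor, was listed at 0.14, 0.04 and 0.12 TPM and was lowest in tumour 2. Jchain, which joins secreted antibody units, was listed at 0.30, 0.88 and 0.18 TPM, the order of Ighm and Igkc, and Cd79b, the partner of Cd79a, at 0.71, 0.87 and 0.83 TPM.

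Antigen presentation was expressed in both branches. All 11 genes of MHC class I presentation passed 1 TPM. B2m, the shared light chain of class I molecules, was listed at 588, 639.5 and 527 TPM and H2-K1, a class I heavy chain, at 224, 249 and 175 TPM. All 7 class II genes passed 1 TPM, with a median of 139 TPM. Cd74, the invariant chain, was listed at 345, 381 and 289.9 TPM and H2-Aa, a class II heavy chain, at 174, 189.6 and 134 TPM. For these 4 genes tumour 3 was lowest and tumour 2 highest. Across the lists, tumour 2 was highest for 5 of 7 class II genes and for 4 of 11 class I genes, against 33.3% of all genes. Tumour 1 was highest for 6 of the 11 class I genes, against 44.4% of all genes, so the class I counts lay near the background. The MHC heavy chains have close relatives, so reads may be divided among them.

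Checkpoint and suppressive genes were even, with sums within 1.04 times of each other and 11 of 15 above 1 TPM. Lgals9, encoding galectin-9, was the highest at 175, 187 and 184 TPM, and Cd47, the signal that restrains phagocytosis, followed at 99.3, 97.1 and 91.8 TPM. Nt5e, encoding the ectoenzyme CD73, was listed at 59.2, 65.0 and 60.9 TPM. Cd274, encoding PD-L1, was listed at 3.84, 3.74 and 3.78 TPM. Its receptor gene Pdcd1 and Ctla4, chosen after their values were seen, were under 1 TPM in each tumour.

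Genes of the type I interferon response were expressed at low levels and were lowest in tumour 3. All 18 passed 1 TPM, with a median of 8.43 TPM, and the sums were 233, 286 and 165 TPM. Bst2, encoding the virus-retaining tetherin, was listed at 78.7, 112 and 67.4 TPM. Isg15, a ubiquitin-like protein, was listed at 14.4, 14.99 and 8.78 TPM. Tumour 3 was highest for 0 of the 18 as deposited, against 21.8% of all genes. This count was also 0 under each other scaling, for which no share over all genes is given. Tumour 3 was apart and low for 1 of the 18, against 0.33% of all genes.

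The 39 lists hold 567 genes, of which 462 had a mean of at least 1 TPM, 105 were below it and 15 were listed at 0 in all 3 tumours. Genes outside the lists that set a tumour apart, chosen after their values were seen, included Gpx2, a glutathione peroxidase of digestive epithelium, at 117, 283 and 102 TPM. Sfrp2, a secreted Wnt modulator of fibroblasts, was listed at 42.1, 12.8 and 13.4 TPM. Apod, a lipid-binding protein of dermal stroma, was listed at 25.4, 21.9 and 4.21 TPM. Tumour 2 was high for Gpx2, tumour 1 was high for Sfrp2 and tumour 3 was low for Apod.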

How the data were processed

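Bulk RNA-seq values of 3 PBS tumours were analysed. The authors deposited 1 table of TPM per Ensembl gene and tumour, and no counts are used here. Tools listed in the submitters' processing notes are STAR, RSEM, featureCounts and FastQC, with neither version nor role. The genome build is not given in the sources used here. Column names were matched to the sample descriptions. Per the labels' protocols, libraries were stranded total RNA. Depth is unknown, so no counting interval is given.

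Genes with a symbol were ranked by mean TPM. The deposited values were also taken as log2(TPM + 1), on genes averaging 1 TPM or more, for the SD over tumours and for the rule on apart tumours (a gap of at least 1). No test was run. Where 2 rows share a symbol (2 list genes), the higher was used. Predicted genes were aligned to GENCODE M21 transcripts (GRCm38) with blastn 2.17.0, and promoters came from RefSeq (GRCm38.p6) by symbol. Python 3.11.15, pandas 2.3.3, numpy 2.4.6 and matplotlib 3.10.9 were used, and the code was tested on simulated data.

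The tumours and the 39 gene lists were chosen with earlier results of these data known. Genes named are the 20 highest, the 30 highest outside mitochondrial, ribosomal, predicted and small RNA classes, the leading 2 and the 4 highest members of each list, the 10 of largest and 10 of smallest SD of at least 10 TPM, and up to 5 list members apart per tumour and direction. Values of a few of these genes are not reported here. Genes picked outside this rule are marked as such where they appear. Alternatives were pseudocounts of 0.1 and 0.5, no filter, a mean of at least 5 TPM, rescaling without mitochondrial genes and the 50 highest, median-ratio scaling, quantile normalization, other rank measures and each tumour left out. Adding the mitochondrial copies was chosen after seeing the data.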

Additional observations from a re-analysis of the deposited data

How the results depend on the processing

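The number of genes of at least 1 TPM in every tumour was 14065 as deposited, 14194 to 14354 with each tumour left out and 14629 after rescaling without the highest genes, while 14856 had a mean of at least 1 TPM. Of the 100 highest genes, 99 were shared with every other ranking. Without mitochondrial and small structural RNA genes the 100 highest held 31.3% of TPM. The median SD on the log2 scale was 0.119 with a pseudocount of 0.1, 0.0165 with no filter and 0.0946 at a mean of at least 5 TPM, and 0.0802 to 0.0995 with each tumour left out. Genes that set a tumour apart numbered 500 with a pseudocount of 0.1, 435 with no filter and 110 at a mean of at least 5 TPM; other settings gave 288 to 368. Rescaling without the highest genes shifted the median of all genes by 0.38 to 0.40 in all 3 tumours, and the other scalings by at most 0.04. Of 239 named genes, leaving out tumour 1, 2 or 3 moved 5, 13 and 9 means by over 1.5 times. The list median moved that far for gastric-type genes (39.6 TPM) and adipocytes (2.32 TPM against 7.56) without tumour 2, skeletal muscle (3.37 TPM against 5.94) without tumour 1, and erythroid (5.44 TPM against 15.8) and acinar genes (0 TPM against 0.005) without tumour 3. The summed mitochondrial level was 39653 TPM alone and 84468 TPM with its copies. No paired analysis was possible because 1 group has no partner. Depth is unknown, so values under 1 TPM cannot be given a counting error.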
